A study of Mus musculus with 2 samples.

Results

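The motors that carry cargo along microtubules were described in RNA of brain tissue from a single mouse, an adult male of the inbred strain C57BL/6J aged 10 weeks. The set holds 37 genes of the 43346 genes in the deposited tables, and the genes were listed by name, with no measured value in the rule. It comprises 19 kinesins and kinesin subunits of transport, 5 kinesins of cell division, and 13 genes of cytoplasmic dynein, dynactin and their regulators. Poly(A) RNA was sequenced in 2 libraries, which the labels call technical replicates 2 and 1 of biological replicate 1. The labels name no treatment and no genetic change, and they date replicate 2 after the publication that they give for the study. The comparison made is therefore replicate 2 against replicate 1. It describes these libraries and no condition, and no difference below has a replicate check.

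Microtubules in an axon point their growing ends away from the cell body. Most kinesins walk towards those growing ends and carry vesicles, mitochondria and proteins outwards, whereas cytoplasmic dynein walks the other way and returns endosomes and signals to the cell body. Kinesin-1 is built from heavy chains, which hold the motor domain, and light chains, which bind cargo, while dynein needs the dynactin complex and adaptors for long runs. A separate group of kinesins builds and separates the mitotic spindle and is scarce in cells that no longer divide.

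Levels are given as TPM, a length-corrected transcript level that sums to the same total in each library. Replicate 2 held 17828479 counts and replicate 1 held 18302485 counts after rounding of the deposited expected counts. Of the 16320 genes that reached 10 counts over both libraries together, 34.5% were called higher in replicate 2 and 24.0% were called lower. A call needs a Benjamini-Hochberg adjusted p under 0.05 in an exact two-sided binomial test and a difference of at least 2-fold, with library sizes scaled by TMM. TMM scaling moved every log2 count ratio by -0.61 relative to scaling by library totals. The 37 mitochondrially encoded genes held 17% of all TPM in replicate 2 and 37.8% in replicate 1. Every marker on the lists for neurons, glia, vessels and ependyma reached 1 TPM in replicate 2. In replicate 1 this held for 8 of 8 neuronal, 6 of 6 astrocyte, 6 of 6 oligodendrocyte, 3 of 4 precursor, 4 of 6 microglial, 4 of 5 endothelial and 2 of 5 ependymal markers.

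The motor genes were spread over a wide range of levels, and 33 of the 37 had a mean TPM of at least 1. The 4 others were Kif2c, Kif15, Kif20a and Kif23, all kinesins of cell division. Summed TPM of the transport kinesins was 2871 in replicate 2 and 1145 in replicate 1. The dynein and dynactin genes together held 2488 TPM in replicate 2 and 1837 TPM in replicate 1, and the mitotic kinesins held 1.97 TPM in replicate 2 and 1.82 TPM in replicate 1. In replicate 2 the highest motor genes were Kif5a, Dynll1, Dynll2 and Klc1, and in replicate 1 they were Dynll1, Pafah1b1, Kif5c and Kif5b. Across the 37 genes the TPM of the 2 libraries had a Spearman correlation of 0.724. It was 0.622 over the 14229 genes of the series with a mean TPM of at least 1. The 37 genes were not held to that level, so the 2 correlations are over unlike sets. Both are descriptions, and genes are not independent replicates.

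**Figure D1:**
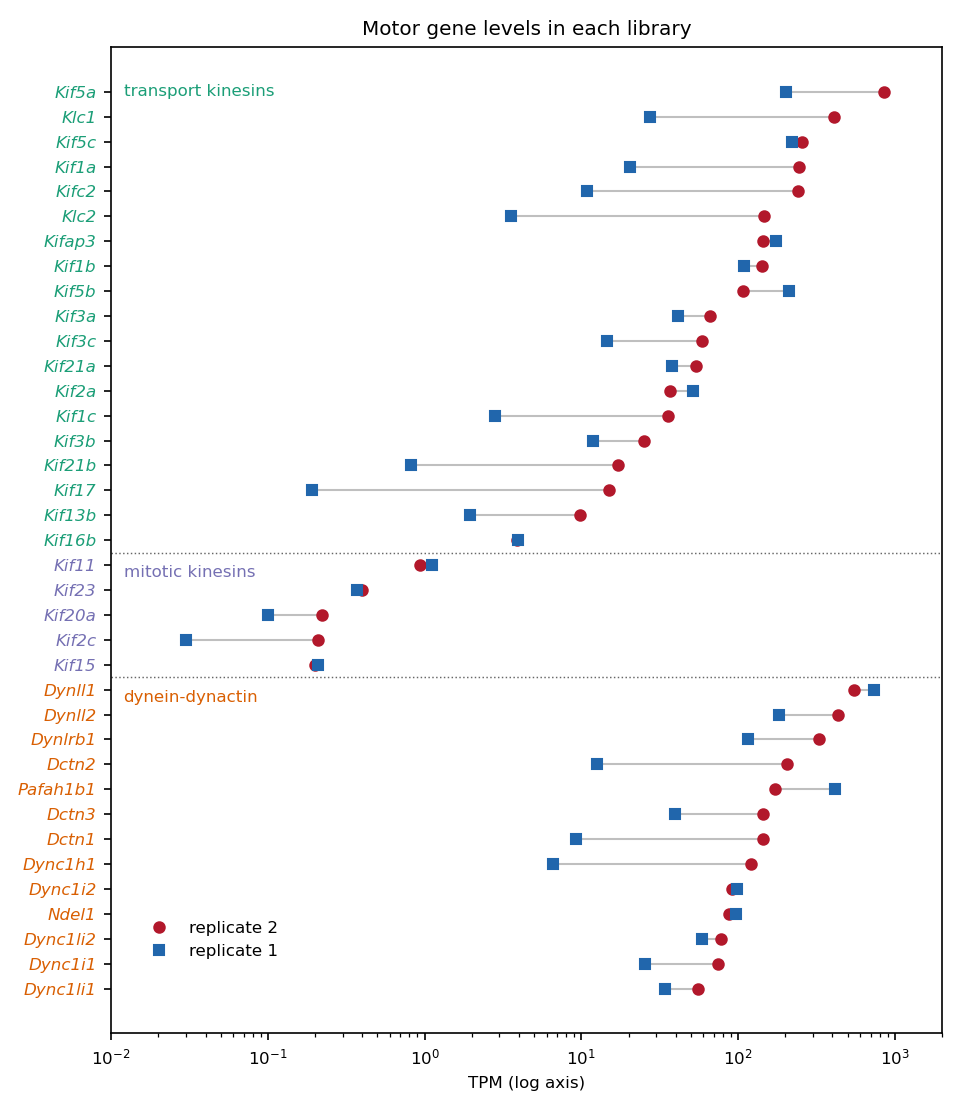
TPM (log axis) of each of the 37 motor genes in replicate 2 (red circles) and replicate 1 (blue squares), with the genes of each group ordered by their level in replicate 2. Grey lines join the libraries: Klc2, Kif17 and Kif21b have long lines with replicate 2 at the high end, and Pafah1b1 and Kif5b have replicate 1 at the high end.

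Of the 36 motor genes with enough counts to test, 14 were called higher in replicate 2, which is 38.9% beside 34.5% of all tested genes. Another 6 were called lower in replicate 2, which is 16.7% beside 24.0% of all tested genes. In either direction 55.6% of the motor genes were called, beside 58.5% of all tested genes, so they were called about as often as genes in general. The 14 higher genes were Kif1a, Kif1c, Kif3c, Kif5a, Kif13b, Kif17, Kif21b, Kifc2, Klc1, Klc2, Dync1h1, Dctn1, Dctn2 and Dctn3. The 6 lower genes were Kif2a, Kif5b, Kifap3, Kif11, Dync1i2 and Pafah1b1. With library totals in place of TMM sizes, 16 genes were called higher, adding Dync1i1 and Dynlrb1, and Kif2a alone was called lower, beside 43.6% higher, 7.90% lower and 51.5% in either direction among all tested genes.

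The direction followed base composition closely. GC content here is the share of G and C in a gene's transcripts, weighted by their TPM. All 10 tested motor genes with a GC content of 55 to 60% were called higher in replicate 2, beside 90.8% of all genes in that range. Between 50 and 55% GC, 4 of 7 motor genes were called higher, beside 47.8% of all genes there. None of the 11 motor genes between 45 and 50% was called in either direction, beside 3.35% higher and 16.0% lower among all genes there. Between 40 and 45%, 6 of 8 were called lower, beside 74.6% of all genes there. The Spearman correlation between log2 count ratio and GC content was 0.978 over the 36 motor genes. It was 0.908 over 14039 genes of the series with a mean TPM of at least 1, a limit not set for the motor genes. Both are again descriptions.

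With a smooth trend on GC content taken out of the expected ratio, 3 motor genes were called higher in replicate 2 and 0 were called lower. That is 8.33% higher, beside 10.4% of the 16263 genes with a GC value, and 9.25% of those genes were called lower and 19.6% in either direction. The 3 were Klc2 at 59.7% GC, Dctn1 at 58.8% and Kif17 at 58.0%. GC content moved with the library ratio, and its part in the results below was not tested.

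**Figure D2:**
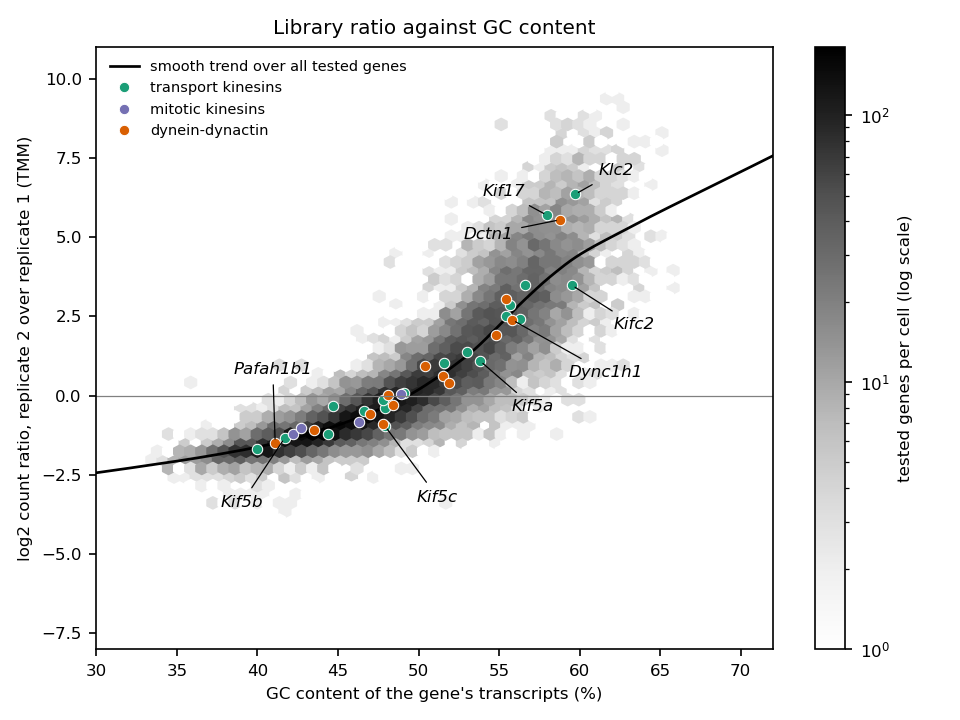
Log2 count ratio of replicate 2 over replicate 1 (TMM sizes) against GC content for all tested genes (grey cells, darker where more genes fall), with the smooth trend as a black line and the motor genes as coloured points. The motor genes run along the same band as the other genes, from Kif2a at 40.0% GC and a log2 ratio of -1.68 to Klc2 at 59.7% GC and a log2 ratio of 6.35.

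The kinesin-1 heavy chains, the conventional motor of fast axonal transport, were divided differently among their genes in the 2 libraries. Kif5a, the heavy chain made mainly in neurons and linked to hereditary spastic paraplegia, had 857 TPM in replicate 2 and 202.5 TPM in replicate 1. Kif5b, the heavy chain made in most tissues, had 107 TPM in replicate 2 and 211 TPM in replicate 1. Kif5c, enriched in neurons, had 257 TPM in replicate 2 and 219 TPM in replicate 1. Replicate 2 gave the order Kif5a, Kif5c, Kif5b, whereas in replicate 1 the 3 genes lay within a narrow range.

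Kif5a had 56878 counts in replicate 2 against 17828 in replicate 1, and its TPM ratio of 4.23 had a 95% interval of 4.16 to 4.30 from counting error alone. The Kif5b ratio was 0.505 with an interval of 0.489 to 0.521, and the Kif5c ratio was 1.17 with an interval of 1.15 to 1.20. Over protein-coding transcripts alone the Kif5c ratio was 1.01. Kif5c-204, a non-coding transcript of 775 bases, held 13.4% of the Kif5c TPM in replicate 2 and was listed at 0 in replicate 1. Kif5c had 16150 counts in replicate 2 and 20989 in replicate 1. On the TMM scale the log2 count ratios were 1.10 for Kif5a, -1.33 for Kif5b and -0.95 for Kif5c, so Kif5c did not pass the fold threshold. With library totals they were 1.71 for Kif5a, -0.72 for Kif5b and -0.34 for Kif5c, and Kif5a alone was called. With the GC trend removed they were -0.50 for Kif5a, 0.10 for Kif5b and -0.58 for Kif5c, and none was called. As a share of the 3 genes' TPM, Kif5a took 70.2% in replicate 2 and 32.0% in replicate 1. Kif5b took 8.75% in replicate 2 and 33.4% in replicate 1, and Kif5c took 21.1% in replicate 2 and 34.6% in replicate 1. The GC content of the genes ran in the order of their TPM ratios, at 53.8% for Kif5a, 47.9% for Kif5c and 41.7% for Kif5b.

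The composition differs even where the proteins hardly do. Kif5a lies at chr10:127225696-127263348 on the minus strand and Kif5c at chr2:49619298-49774778 on the plus strand (mm10). The coding stretch around the phosphate-binding loop, with which the motor domain grips ATP, is shown for both because it carries nearly the same amino acids with a different base composition. The sequences are from the GENCODE M21 transcripts Kif5a-201 and Kif5c-201, read 5′ to 3′ in the reading frame, and capitals mark the bases that differ.
Kif5a: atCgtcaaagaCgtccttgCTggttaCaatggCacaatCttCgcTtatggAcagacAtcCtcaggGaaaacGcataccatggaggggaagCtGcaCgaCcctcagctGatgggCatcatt
Kif5c: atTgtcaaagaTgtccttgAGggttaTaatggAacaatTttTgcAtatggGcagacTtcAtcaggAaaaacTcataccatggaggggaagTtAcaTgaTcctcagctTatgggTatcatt
Of the 120 bases compared 20 differ, 18 of them at the last base of a codon, and 1 codon changes its amino acid. GC content in this stretch is 50.8% in Kif5a and 39.2% in Kif5c. Over the whole coding sequence it is 55.3% in Kif5a, 51.2% in Kif5c and 43.5% in Kif5b.

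The kinesin light chains, which link the heavy chains to cargo adaptors, were much higher in replicate 2. Klc1, the light chain prominent in neurons, had 411 TPM in replicate 2 and 27.5 TPM in replicate 1, a ratio of 14.9 (interval 13.9 to 16.0). Klc2, its paralog, had 146 TPM in replicate 2 and 3.58 TPM in replicate 1, from 4055 counts in replicate 2 and 33 in replicate 1. The Klc2 log2 count ratio of 6.35 was the largest among the motor genes, and it was 2.01 with the GC trend removed. Heavy and light chains assemble in equal numbers in kinesin-1. Summed over genes, TPM of heavy chains over light chains was 2.19 in replicate 2 and 20.3 in replicate 1.

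Kinesin-2 is a heterotrimer of 2 different motor chains and an accessory subunit, and it serves axonal cargo and cilia. Kif3a, the chain shared by both neuronal forms, had 66.4 TPM in replicate 2 and 41.2 TPM in replicate 1. Kif3b, one partner of Kif3a, had 25.0 TPM in replicate 2 and 11.95 TPM in replicate 1. Kif3c, the other and mainly neuronal partner, had 58.6 TPM in replicate 2 and 14.6 TPM in replicate 1. Of the 3 motor chains Kif3c alone was called, with a log2 count ratio of 1.02 that lies just over the 2-fold limit.

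Kifap3, the accessory subunit that binds cargo, had 145 TPM in replicate 2 and 173 TPM in replicate 1, and its log2 count ratio of -1.22 was called lower. With library totals that ratio was -0.61 and was not called. Kifap3 over Kif3a was 2.18 in replicate 2 and 4.21 in replicate 1. Kif17, a homodimeric kinesin-2 motor known for dendritic transport of NMDA receptor subunits, had 14.95 TPM in replicate 2 and 0.19 TPM in replicate 1. It rested on 420 counts in replicate 2 and 5 counts in replicate 1, and the ratio of 78.7 had an interval of 33.5 to 244. Over protein-coding transcripts Kif17 had 12.65 TPM in replicate 2 and 0 TPM in replicate 1. All of its TPM in replicate 1 stood on Kif17-203, a retained-intron transcript. The Kif17 values are uncertain, since Sh2d5 overlaps the gene on the same strand with 1559 counts in replicate 2 and 301 in replicate 1.

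Kinesin-3 motors carry synaptic vesicle precursors and other membrane cargo. Kif1a, the main carrier of synaptic vesicle precursors, had 244 TPM in replicate 2 and 20.5 TPM in replicate 1. Kif1b, whose isoforms carry mitochondria or synaptic vesicle precursors, had 142 TPM in replicate 2 and 109 TPM in replicate 1. Kif1a was thus above Kif1b in replicate 2 and below it in replicate 1. The Kif1a ratio was 11.9 (interval 11.4 to 12.4) and its log2 count ratio 2.50 on the TMM scale, against 0.06 with the GC trend removed.

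Kif1b was not called, and its log2 count ratio was -0.38 with TMM sizes and 0.23 with library totals. Kif1c, a more widely made relative that moves dense core vesicles and integrins, had 35.6 TPM in replicate 2 and 2.82 TPM in replicate 1. Kif13b, which carries phosphoinositide-linked cargo to axon tips, had 9.84 TPM in replicate 2 and 1.94 TPM in replicate 1. Both Kif1c and Kif13b were called higher. Kif16b, an endosome motor, had 3.91 TPM in replicate 2 and 3.93 TPM in replicate 1 over all transcripts, and 3.56 TPM in replicate 2 and 1.89 TPM in replicate 1 over protein-coding ones. Kif1a held 56.0% of the family's TPM in replicate 2 and 14.9% in replicate 1, while Kif1b held 32.6% in replicate 2 and 78.8% in replicate 1.

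**Figure D3:**
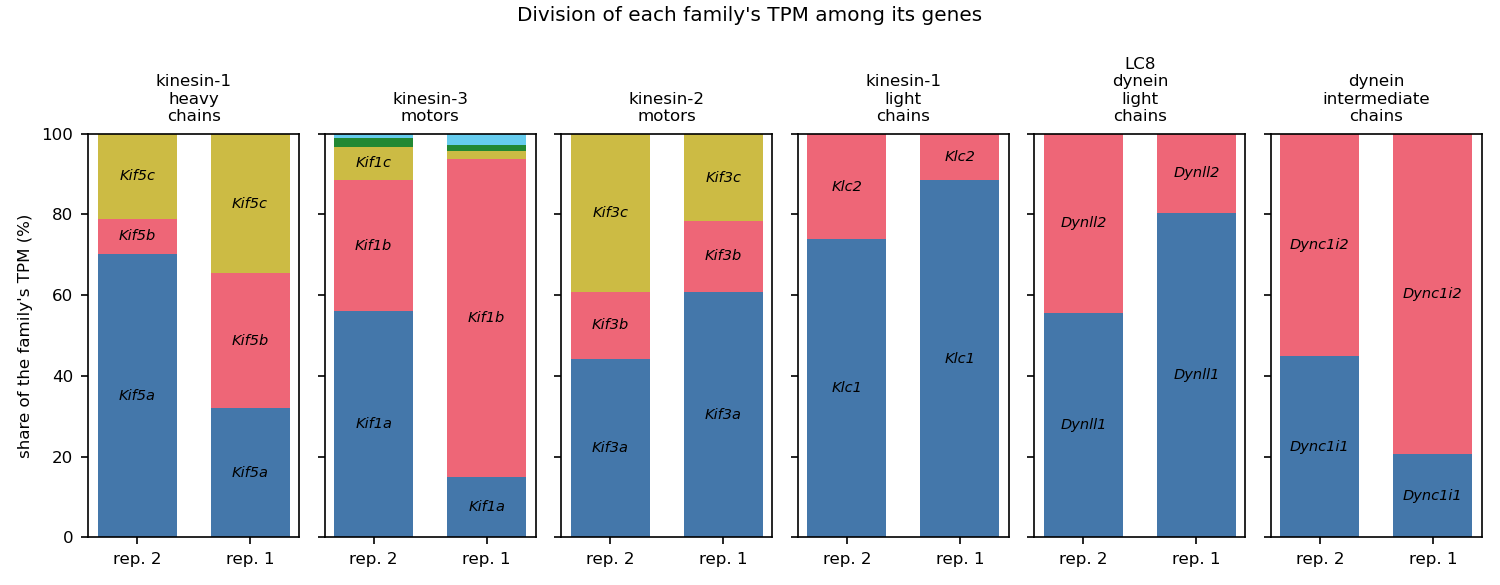
Share of each family's summed TPM (%) taken by its genes, with replicate 2 as the left bar and replicate 1 as the right bar of each panel. Kif5a takes 70.2% of the kinesin-1 heavy chains in replicate 2 and 32.0% in replicate 1, and Kif1a takes 56.0% of the kinesin-3 motors in replicate 2 and 14.9% in replicate 1.

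The remaining transport kinesins went with their base composition in the same way. Kifc2, a brain-enriched member of the family that walks towards the minus end, had 240.4 TPM in replicate 2 and 10.8 TPM in replicate 1, at 59.5% GC. Its log2 count ratio of 3.49 was 0.79 below the smooth GC trend. Kif21b, a dendritic motor of the kinesin-4 family, had 17.2 TPM in replicate 2 and 0.82 TPM in replicate 1. Kif21b-204, annotated as a target of nonsense-mediated decay, held 73.5% of the gene's TPM in replicate 2 and was listed at 0 in replicate 1. Over protein-coding transcripts Kif21b had 4.02 TPM in replicate 2 and 0.75 TPM in replicate 1. Its close relative Kif21a, which curbs microtubule growth and is mutated in a congenital eye movement disorder, had 53.9 TPM in replicate 2 and 38.0 TPM in replicate 1 and was not called. Kif21b was at 56.6% GC and Kif21a at 46.6%.

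Kif2a, a kinesin-13 that takes microtubules apart and limits axon branching, had 36.6 TPM in replicate 2 and 51.6 TPM in replicate 1. It had the lowest GC content of the motor genes at 40.0%. It was the one motor gene called lower under both scalings, with a log2 count ratio of -1.68 by TMM sizes and -1.06 by library totals. With the GC trend removed the ratio was -0.06. For 6 uncalled motor genes, Kif1b, Kif3a, Kif16b, Kif21a, Dync1li1 and Dync1li2, the sign of the ratio was negative with TMM sizes and positive with library totals.

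The kinesins of cell division were near the limit of detection in both libraries. In a tissue sample, fewer dividing cells and less RNA per cell cannot be told apart. Kif11, the motor that pushes spindle poles apart and also acts as a brake in neurons, had 0.94 TPM in replicate 2 and 1.11 TPM in replicate 1, from 47 counts in replicate 2 and 74 in replicate 1. Kif23, a subunit of the cytokinetic centralspindlin complex, had 14 counts in replicate 2 and 17 in replicate 1. Kif15, a spindle motor that acts beside Kif11, had 10 counts in replicate 2 and 14 in replicate 1. These 3 genes lay between 0.2 and 1.11 TPM.

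Kif20a, which moves the passenger complex to the midzone, had 8 counts in replicate 2 and 5 in replicate 1. Kif2c, which corrects faulty chromosome attachments, had 6 counts in replicate 2 against 1 in replicate 1 and was too low to test. Its TPM ratio of 7.0 had an interval of 0.849 to 322, so no difference was detectable at this depth. Kif11 was called lower with TMM sizes at a log2 ratio of -1.22, and was not called with library totals at -0.61. Of the 6 markers of dividing cells 1 was called higher in replicate 2, Mcm2, with 80 counts in replicate 2 against 18 in replicate 1. Another 2 were called lower, Mki67, with 24 counts in replicate 2 against 39 in replicate 1, and Pcna, with 914 counts in replicate 2 against 1421 in replicate 1. The other 3, Top2a, Ccnb1 and Cdk1, were not called. Of 7 other kinesins listed as mitotic, Kif20b not among them, 4 had enough counts to test. Of these, 2 were called lower, Kif18a and Cenpe, and none was called higher. Among all tested genes 34.5% were called higher and 24.0% lower. With library totals Mcm2 and Kif18a kept their calls, Mki67, Pcna and Cenpe lost theirs, and Kifc1 was called higher. That stands beside 43.6% higher and 7.90% lower among all tested genes. With the GC trend removed no gene of either list was called, beside 10.4% higher and 9.25% lower among all genes with a GC value.

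The heavy chain of cytoplasmic dynein carries the motor itself. Dync1h1 had 120.5 TPM in replicate 2 and 6.63 TPM in replicate 1, from 10542 counts in replicate 2 and 1349 in replicate 1. The log2 count ratio was 2.39 by TMM sizes and -0.24 with the GC trend removed, at 55.8% GC. The TPM ratio was 18.2 and the count ratio by TMM sizes was 5.25. The scales differ in their library totals and in effective length, which averaged 8071 bases in replicate 2 and 14159 bases in replicate 1 for this gene. In replicate 2 a retained-intron transcript of 427 bases, Dync1h1-204, took 38.8% of the gene's TPM on 122 of its counts, and in replicate 1 it was listed at 0.

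The intermediate chains tie the heavy chain to dynactin and cargo. Dync1i1, the chain enriched in neurons, had 74.8 TPM in replicate 2 and 25.4 TPM in replicate 1. Dync1i2, the chain made in most cells, had 91.9 TPM in replicate 2 and 97.8 TPM in replicate 1. Dync1i1 held 44.9% of the pair's TPM in replicate 2 and 20.6% in replicate 1. Dync1i2 was called lower at a log2 count ratio of -1.07 by TMM sizes and was not called with library totals, and Dync1i1 was called higher with library totals alone.

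Both intermediate chain genes carry a cassette exon of 60 bases with a similar sequence, and it is shown because inclusion moved between the libraries in one gene and hardly in the other. The Dync1i1 exon lies at chr6:5784439-5784498 and the Dync1i2 exon at chr2:71233649-71233708, both on the plus strand (mm10). Capitals mark the bases that differ between the exons, which are read 5′ to 3′ from GENCODE M21.
Dync1i1: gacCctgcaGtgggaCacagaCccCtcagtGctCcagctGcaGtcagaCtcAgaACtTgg
Dync1i2: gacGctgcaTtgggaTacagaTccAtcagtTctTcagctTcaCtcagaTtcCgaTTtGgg
Of 60 bases 14 differ, and GC content is 60.0% in the Dync1i1 exon and 48.3% in the Dync1i2 exon. Transcripts with the exon held 91.1% of the Dync1i1 TPM that could be assigned in replicate 2 and 30.4% in replicate 1. For Dync1i2 the shares were 75.7% in replicate 2 and 73.7% in replicate 1. These are sums of estimated transcript levels, and no interval was computed for the shares. For Dync1i1-204, the leading transcript with the exon, the authors' deposited interval was 43.1 to 55.2 TPM in replicate 2 and 0.763 to 13.8 TPM in replicate 1. For Dync1i1-201, which skips it, the intervals overlapped, at 2.67 to 10.8 TPM in replicate 2 and 7.94 to 20.98 TPM in replicate 1.

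The light intermediate chains, which bind the activating adaptors, were close between the libraries. Dync1li1 had 55.3 TPM in replicate 2 and 34.4 TPM in replicate 1, and Dync1li2 had 78.2 TPM in replicate 2 and 59.1 TPM in replicate 1. Neither was called. Their sum over that of the intermediate chains was 0.801 in replicate 2 and 0.759 in replicate 1. The heavy chain over the intermediate chains was 0.723 in replicate 2 and 0.0538 in replicate 1. Over protein-coding transcripts alone Dync1h1 had 67.7 TPM in replicate 2 and 6.63 TPM in replicate 1.

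The LC8 light chains are small hub proteins that also bind many partners outside dynein. Dynll1 had 548 TPM in replicate 2 and 739 TPM in replicate 1, and Dynll2 had 436 TPM in replicate 2 and 182 TPM in replicate 1. Dynll1 held 55.7% of the pair's TPM in replicate 2 and 80.3% in replicate 1. Dynll1-203, a non-coding transcript of 539 bases, held 36.8% of the Dynll1 TPM in replicate 2 and 79.5% in replicate 1. Over protein-coding transcripts Dynll1 had 267 TPM in replicate 2 and 150.4 TPM in replicate 1. On that measure Dynll2 was above Dynll1 in both libraries, at 436 TPM in replicate 2 and 182 TPM in replicate 1. Neither passed the fold threshold with TMM sizes, at log2 count ratios of -0.90 for Dynll1 and 0.39 for Dynll2. Their coding sequences are shown because they are close in length, letters and GC content, while the division over all transcripts differed between libraries. They are from Dynll1-201 on chromosome 5 and Dynll2-201 on chromosome 11, without the stop codon, and capitals mark the bases that differ.
Dynll1: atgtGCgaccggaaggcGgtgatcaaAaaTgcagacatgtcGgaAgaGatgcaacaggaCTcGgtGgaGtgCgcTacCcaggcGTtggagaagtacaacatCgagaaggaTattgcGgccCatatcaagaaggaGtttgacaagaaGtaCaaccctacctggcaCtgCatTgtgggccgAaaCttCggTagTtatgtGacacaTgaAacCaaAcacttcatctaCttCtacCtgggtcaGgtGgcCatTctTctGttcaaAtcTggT
Dynll2: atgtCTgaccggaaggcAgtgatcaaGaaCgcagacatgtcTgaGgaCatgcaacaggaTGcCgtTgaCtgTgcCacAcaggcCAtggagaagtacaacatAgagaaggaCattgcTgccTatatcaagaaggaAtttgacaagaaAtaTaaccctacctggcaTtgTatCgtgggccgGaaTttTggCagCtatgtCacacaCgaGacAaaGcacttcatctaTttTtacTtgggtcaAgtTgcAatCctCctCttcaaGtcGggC
Both run to 267 bases and match at 81.3% of them, and 45 of the 50 differences fall on the last base of a codon. In 42 codons the difference keeps the amino acid and in 6 it changes it. Coding GC content is 49.1% in Dynll1 and 46.8% in Dynll2, the reverse of the order over whole transcripts, which is 47.8% in Dynll1 and 51.9% in Dynll2. Dynll2-201, the longer of its main transcripts at 53.7% GC, held 55.3% of the gene's TPM in replicate 2 and 0.78% in replicate 1.

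Dynlrb1, a roadblock light chain that binds the intermediate chains, had 329.6 TPM in replicate 2 and 116 TPM in replicate 1. Its log2 count ratio was 0.94 by TMM sizes, under the fold threshold, and 1.55 by library totals, over it. Counting protein-coding transcripts alone, Dynlrb1 had 324 TPM in replicate 2 and 18.6 TPM in replicate 1. The difference lies in Dynlrb1-203, a non-coding transcript of 534 bases, which held 0.5% of the gene's TPM in replicate 2 and 83.9% in replicate 1.

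The 3 dynactin subunits were called higher in replicate 2. Dctn1, the p150 subunit that touches the microtubule and is mutated in Perry syndrome, had 144 TPM in replicate 2 and 9.18 TPM in replicate 1, from 5394 counts in replicate 2 and 77 in replicate 1. Dctn2, the dynamitin subunit of the shoulder, had 206 TPM in replicate 2 and 12.6 TPM in replicate 1. Dctn3, the p24 shoulder subunit, had 145 TPM in replicate 2 and 39.8 TPM in replicate 1. The log2 count ratios by TMM sizes were 5.55 for Dctn1, 3.05 for Dctn2 and 1.91 for Dctn3. With the GC trend removed they were 1.53 for Dctn1, 0.64 for Dctn2 and -0.21 for Dctn3.

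Dctn1 over Dctn2 on the TPM scale was 0.699 in replicate 2 and 0.729 in replicate 1, although their count ratios differed. The mean effective length of Dctn1 was 3460 bases in replicate 2 and 584 bases in replicate 1. Dctn3 over Dctn2 was 0.706 in replicate 2 and 3.16 in replicate 1. Part of the Dctn3 TPM in replicate 1 stood on Dctn3-202, a non-coding transcript of 344 bases that held 61.8% of the gene's TPM there and was listed at 0 in replicate 2. Il11ra1 overlaps Dctn3 on the opposite strand, with 476 counts in replicate 2 against 38 in replicate 1. Genes with counts also overlap Kif2a, Kif3c, Kifc2, Klc1, Kif20a, Dync1i1 and Dctn1 on the opposite strand. The strand setting of the counting was not given in the sources used here, so these members are uncertain to that extent.

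The regulators bind dynein and change its grip on the microtubule. Pafah1b1, the gene of LIS1 whose loss causes lissencephaly in humans, had 171 TPM in replicate 2 and 418 TPM in replicate 1. It was called lower at a log2 count ratio of -1.50 by TMM sizes, and was not called with library totals at -0.89. With the GC trend removed the ratio was -0.01, at 41.1% GC. Ndel1, which brings LIS1 to dynein, had 88.1 TPM in replicate 2 and 97.7 TPM in replicate 1 and was not called. On the TPM scale Pafah1b1 over Dync1h1 was 1.42 in replicate 2 and 63.0 in replicate 1. Short transcripts weigh on these ratios. Dync1h1-204 held 38.8% of the Dync1h1 TPM in replicate 2, and Pafah1b1-204 held 43.7% of the Pafah1b1 TPM in replicate 1. In replicate 2 Pafah1b1 had 10496 counts and Dync1h1 had 10542. In replicate 1 Pafah1b1 had 20022 counts and Dync1h1 had 1349.

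The libraries also disagreed on which transcript of a gene was the main one. Of the 37 motor genes 11 have 1 transcript in the tables, and among the 26 with several the same transcript led in both libraries for 9. In the 17 others the leader by TPM was counted as changed. Of these, Kif2c, Kif20a, Kif17 and Klc2 rest on at most 33 counts in replicate 1. For Kif20a the change is a tie, since both its transcripts had 0.11 TPM in replicate 2. By share Kif20a-202 led in both libraries, with 50.06% in replicate 2 and 100% in replicate 1. The counts of leaders given here include Kif20a as changed. The leader was shorter in replicate 1 than in replicate 2 for 16 of the 17 and had a lower GC content for 11. It was not protein coding for 6 of them in replicate 1 and for 1 in replicate 2. Shares of TPM weigh short transcripts heavily, since few counts on a short transcript make many TPM.

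Some of these changes were large against the deposited intervals, which the authors put around posterior mean TPM. Kif5b-202, a transcript of 2006 bases, held 3.76% of Kif5b TPM in replicate 2 and 55.2% in replicate 1, with a deposited upper bound of 8.38 TPM in replicate 2 and a lower bound of 105 TPM in replicate 1. Pafah1b1-204, of 525 bases, was listed at 0 in replicate 2 with an upper bound of 4.38 TPM, and held 43.7% of the gene's TPM in replicate 1 with a lower bound of 156 TPM. Kifap3-202 and Kifap3-201 differ in length by few bases, and the longer Kifap3-202 held 90.9% of the gene's TPM in replicate 2 and 14.0% in replicate 1. The intervals of these 3 transcripts did not overlap between the libraries.

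In other cases the intervals overlapped. Klc2-205, a retained-intron transcript of 411 bases, held 0.87% of Klc2 TPM in replicate 2 and 85.0% in replicate 1. Its TPM was 1.27 in replicate 2 and 3.04 in replicate 1, with an interval of 0.288 to 3.12 in replicate 2 and 1.36 to 5.13 in replicate 1, so its own level was not separated between the libraries. Dctn1-210, of 696 bases, held 1.99% of Dctn1 TPM in replicate 2 and 62.0% in replicate 1. Its interval was 0.998 to 5.12 TPM in replicate 2 and 1.71 to 6.56 TPM in replicate 1. Counting protein-coding transcripts alone, Ndel1 had 76.1 TPM in replicate 2 and 23.7 TPM in replicate 1, and Dynll1 had 267 TPM in replicate 2 and 150.4 TPM in replicate 1. For these 2 genes that reverses the order of the libraries given by all transcripts.

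**Figure D4:**
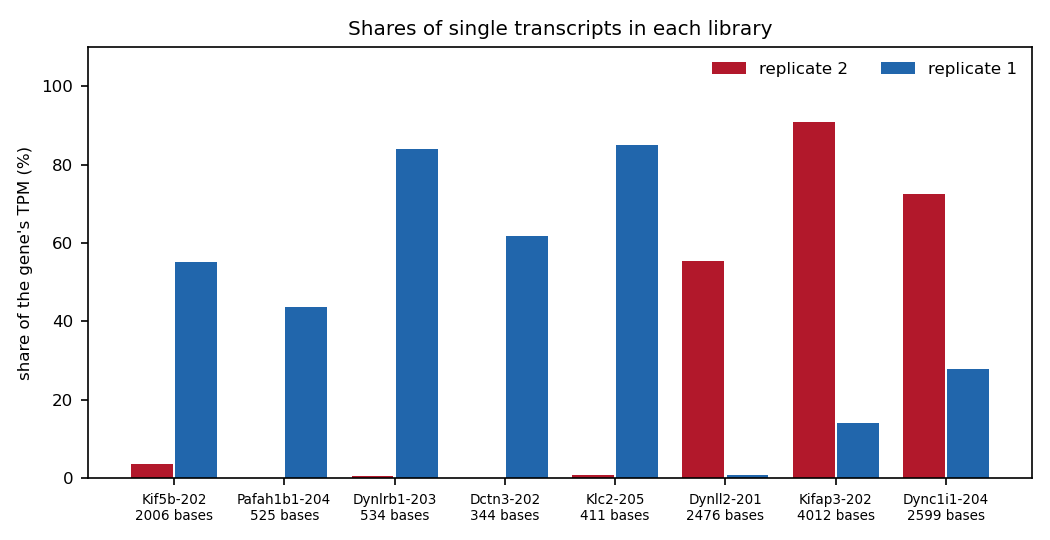
Share of the gene's TPM (%) held by 8 single transcripts in replicate 2 (red, left bar) and replicate 1 (blue, right bar), with each transcript's length under its name. The 5 transcripts at the left, of 344 to 2006 bases, take 43.7 to 85.0% in replicate 1 and at most 3.76% in replicate 2, and the 3 at the right take more in replicate 2.

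Cassette exons of other motor genes were read in the same way. Exons of Kif21a gave the widest gap, with 0% of 8.06 TPM in replicate 2 and 67.0% in replicate 1, where transcripts with them held 5.98 TPM and those without them 2.94 TPM. These rest on a small part of the gene, and the other exons moved less than that of Dync1i1. A 114-base exon of Kif2a at chr13:106969704-106969817 was included in 41.5% of assignable TPM in replicate 2 and 27.5% in replicate 1. A 9-base microexon of Kif3a at chr11:53590717-53590725 was included in 83.2% in replicate 2 and 66.5% in replicate 1. A 24-base exon of Kif1a at chr1:93026832-93026855 was included in 81.4% in replicate 2 and 98.6% in replicate 1. A 60-base exon of Dctn3 at chr4:41715396-41715455 was included in 99.1% in replicate 2 and 51.8% in replicate 1, on 7.87 TPM with and 7.33 TPM without it in replicate 1. The 42-base and 18-base exons of Kif1b were in 97.0% in replicate 2 and 94.5% in replicate 1, so their use was close in both.

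The wider transport machinery was read from lists of other motors and adaptors. Of 14 tested further kinesins and light chains 7 were called higher in replicate 2, beside 34.5% of all tested genes, and 1 was called lower, beside 24.0%. The lower one was Kif20b, at a log2 count ratio of -2.64 from 7 counts in replicate 2 and 31 in replicate 1. It was not called with the GC trend removed. Kifc3, a minus-end kinesin, had 21.8 TPM in replicate 2 and 0.2 TPM in replicate 1, and Klc4, a further light chain, had 344 counts in replicate 2 and 1 count in replicate 1. Among 16 other dynein and dynactin genes 6 were called higher and 4 lower, beside the same 34.5% and 24.0%. The subunits of capping protein, which closes the barbed end of dynactin's filament, were found in both directions. Capza2 had 201 TPM in replicate 2 and 448 TPM in replicate 1, while Capzb had 215 TPM in replicate 2 and 28.1 TPM in replicate 1. With the GC trend removed, 3 of the 14 further kinesins and light chains were called higher and 2 lower. Kifc3 and Klc4 were among the higher ones. Of the 16 other dynein and dynactin genes 3 were then called higher, Capzb among them, and 0 lower. That stands beside 10.4% higher and 9.25% lower among all genes with a GC value.

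Of 27 cargo adaptors 13 were called higher and 5 lower, beside 34.5% and 24.0% of all tested genes. With library totals 18 were called higher and 3 lower, beside 43.6% and 7.90%. Mapk8ip1 and Mapk8ip3, the JIP scaffolds that link kinesin-1 to vesicles, were called higher, with Mapk8ip1 at 209 TPM in replicate 2 and 8.91 TPM in replicate 1. Fez1, a kinesin-1 adaptor, had 294 TPM in replicate 2 and 160.5 TPM in replicate 1 and was not called. Arl8b, the small GTPase that recruits kinesin to lysosomes, had 134 TPM in replicate 2 and 215 TPM in replicate 1 and was called lower. With the GC trend removed, 1 of the 27 adaptors was called higher and 0 were called lower, beside 10.4% and 9.25% of all genes with a GC value.

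**Figure D5:**
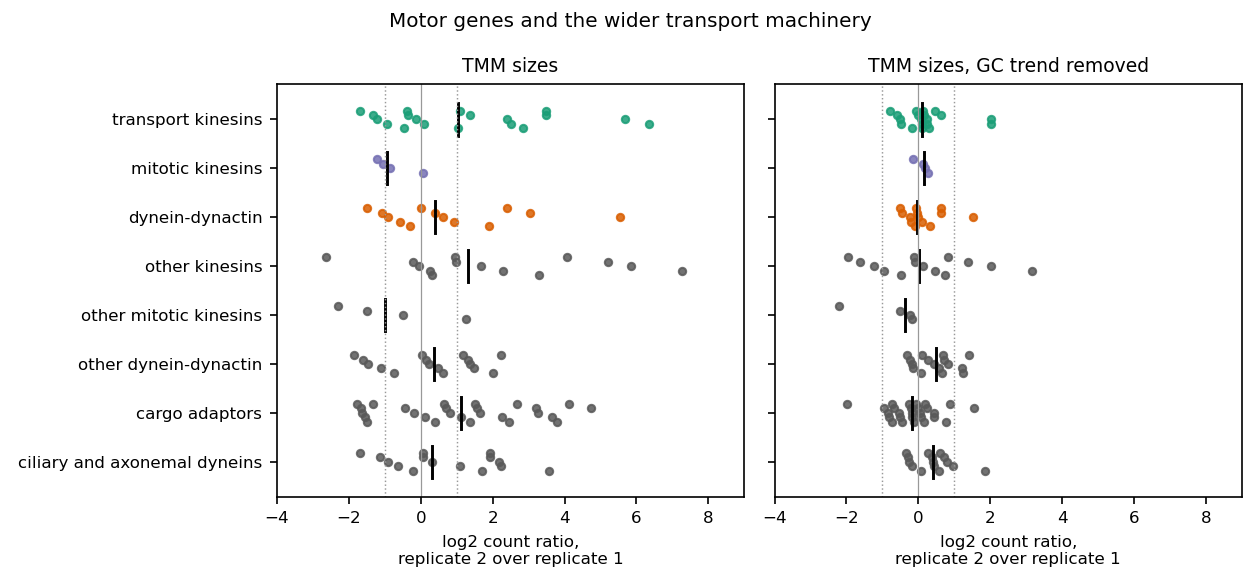
Log2 count ratio of replicate 2 over replicate 1 for the tested genes of each list, with TMM sizes at the left and with the GC trend removed at the right; black bars are medians and dotted lines mark 2-fold. The transport kinesins have a median of 1.02 at the left and 0.10 at the right.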

How the data were processed

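Both libraries came as tables of genes and of transcripts. Expected counts, deposited by the authors, are estimated and often fractional, and they were rounded here. TPM and FPKM, levels scaled by effective length, were deposited by the authors per gene and transcript. The percent of a gene's TPM on each transcript was also deposited by the authors. The deposited listings name mm10 and GENCODE M4; the aligner, quantifier and versions were not given in the sources used here. Symbols, positions and sequences came from GENCODE M21 on the same build, by identifier without version, and 92.7% of the motor genes' transcripts kept their length.

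Counts were compared by an exact two-sided binomial test with Benjamini-Hochberg adjustment over genes with at least 10 counts in total, TMM sizes (edgeR 4.0.16), and calls at adjusted p under 0.05 and 2-fold, with 0.5 added to each count. Quasi-likelihood and DESeq2 tests could not be fitted with 1 library a side; DESeq2 1.42.0 gave size factors only. The test was also run on simulated Poisson counts from a shared profile with planted changes, library totals and no GC effect. Such counts differ from these libraries, so the simulation does not bear on the calls made here. The GC trend is a lowess fit with a fraction of 0.2. Intervals (95%, exact binomial) and the floor of 3 counts, 1.68e-05% of replicate 2 and 1.64e-05% of replicate 1, cover counting error only. Both libraries come from 1 mouse, so spread between them holds no difference between animals. The members and lists were chosen with earlier results of these data known. All 37 members are named; of other lists, genes come from the 3 of highest mean TPM and those called, and dividing-cell markers stand beside the mitotic kinesins. The alternatives were library totals, DESeq2 size factors, no count filter, posterior means, GC trend removal, no fold minimum, other pseudocounts and FPKM.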

Additional observations from a re-analysis of the deposited data

How the results depend on the processing

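The 9555 genes called different in the series were 3189 with the GC trend removed. The 14 motor genes called higher were 3 with the GC trend removed, 16 with library totals, 17 with no minimum fold, and 14 with DESeq2 size factors, with no count filter and with posterior mean counts. The 6 called lower were 1 with library totals, 0 with the GC trend removed and 14 with no minimum fold, and 6 under the other settings. With no minimum fold, 7108 of all 16320 tested genes were called higher and 6397 lower, beside 17 and 14 of the 36 tested motor genes. The median log2 ratio of TPM + 1 over the motor genes was 0.676. Over motor genes at 1 TPM or more on average it was 1.258, beside 0.883 over all genes at that level. It was 1.056 with a pseudocount of 0.1, 0.312 with FPKM and 0.637 with posterior mean TPM. Over protein-coding transcripts alone, an alternative chosen after seeing the data, it was 1.003. The 33 motor genes at 1 TPM or more were 31 to 32 with either library left out. The leading transcript was the same in both libraries for 20 motor genes, for 22 by posterior mean TPM, and for 16 of the 26 with at least 5 TPM in both. The 20 leave out Kif20a, whose transcripts tied in replicate 2. Leaving out a library removes a side of the comparison, so calls have no such value. No paired analysis was possible because there is 1 group. Calls are absent for Kif2c, whose 7 counts lie under the filter. The causes of these shifts were not tested.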

Other observations

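The dyneins of cilia and flagella, which were not members, were measured low. Of 15 such genes, 7 were called higher in replicate 2 and 2 were called lower with TMM sizes, beside 34.5% higher and 24.0% lower among all tested genes. Dync2li1, the light intermediate chain of the dynein that returns cargo along cilia, had 25.8 TPM in replicate 2 and 10.5 TPM in replicate 1 and was not called. Dync2h1, the heavy chain of that motor, had 5.42 TPM in replicate 2 and 6.35 TPM in replicate 1 and was called lower, at a log2 count ratio of -1.14 that was -0.53 with library totals. Dnah10, an axonemal heavy chain, had 44 counts in replicate 2 and 2 in replicate 1.

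The 5 markers of ependymal cells, which bear motile cilia, were all called higher in replicate 2, beside 34.5% of all tested genes. With the GC trend removed 4 of them were called higher, beside 10.4%. So were 2 of 6 microglial, 1 of 6 astrocyte, 1 of 5 endothelial and 1 of 4 precursor markers. The liver marker Alb was called higher too, with 105 counts in replicate 2 and 3 in replicate 1. Lower calls on that scale were found for 2 of 8 neuronal and 2 of 4 precursor markers, beside 9.25% of all genes with a GC value. These were Rbfox3, Tubb3, Olig1 and Olig2, and each had the higher TPM in replicate 2. With TMM sizes alone Rbfox3, Tubb3 and Olig1 were called higher in replicate 2, and Olig2 was not called. Rbfox3 had 130.5 TPM in replicate 2 and 14.7 TPM in replicate 1. Foxj1, the regulator of motile cilia genes, had 224 counts in replicate 2 against 0 in replicate 1, which allows up to 3 counts there. Rarres2 had 121 counts in replicate 2 against 4 in replicate 1, and Ccdc153 had 74 in replicate 2 and 7 in replicate 1. Among the 15 ciliary dyneins 1 was called higher and 0 lower with the GC trend removed, beside 10.4% and 9.25% of all genes with a GC value. The part of ependymal cells in the ciliary dynein values was not tested.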
